A study of Mus musculus with 6 samples.

Results

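Between the genes of mouse mesenchymal stem cells (MSCs), 4535 regions carried acetylated histone H3 (H3ac) in young cells, in old cells and in old cells treated with acetate. They were 18.6% of the 24431 regions in the deposited table. The members were chosen by the authors' calls in these libraries and by position. A region was taken when its name carried the code AC+O+Y, when it was shorter than 20 kb, when no protein-coding transcript of the GENCODE M21 basic annotation started within 1 kb of it, and when it overlapped no protein-coding gene body. The labels do not define the letters of the code, which are read here as calls in OldAcetate, Old and Young MSCs. Since the calls came from the same libraries, the presence of H3ac in all 3 groups was fixed by the choice and is not a result. A region that lost its call in 1 group could not be taken, so counts of changed regions are set beside those of the whole table as a description, and nothing is read from a difference between them.

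H3ac was profiled by CUT&RUN, in which an antibody guides a nuclease to marked chromatin and the freed DNA is sequenced. There were 6 libraries, 2 in each of 3 groups. The Young group held untreated MSCs of mice aged 3 to 5 months, the Old group untreated MSCs of mice aged 18 to 22 months, and the OldAcetate group MSCs of the older mice given 5 mM sodium acetate over 3 days. All cells were cultured at 2% oxygen in αMEM with serum and antibiotics, and the 2 libraries of a group are not stated to come from separate mice or cultures. Any p-value therefore measures only the spread between these libraries, which may be technical. The values are RPM, the reads of a region divided by the library total and expressed per 1e6 reads, with library totals of 2163351 to 3039481 reads. The median member held 31 to 54 reads, at which counting error alone was 13.6% to 18.0% of the value.

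Acetylation of histone H3 loosens chromatin and marks active promoters and enhancers. Enhancers can lie far from the gene they act on, within other genes or in the gene-free stretches between them, and they work by binding transcription factors through short DNA motifs. In stromal cells, well-known factors of this kind are AP-1, a dimer of Jun and Fos proteins that answers to growth factors and stress, the TEAD proteins, which recruit the coactivators YAP and TAZ, and the RUNX proteins, of which Runx2 drives bone formation. The nearest gene is used below only as an address, since a distal region need not act on it.

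The sequences below show how AP-1 letters sit in single members. Each AP-1 window was placed where the member held the most matches within 200 bases, whether or not that was near its centre. Among 63 named members whose sequence was read, 6 held 2 AP-1 matches within 200 bases, and 4 of these windows are shown together with a window of the other member whose level differed between groups. Capitals mark 3 motifs, each searched on both strands. AP-1 has the letters TGACTCA, which read TGAGTCA on the opposite strand. TEAD factors have the core CATTCC, which reads GGAATG there. RUNX factors have the core TGTGGT, which reads ACCACA there. The bases were read from the plus strand of GRCm38, 5′ to 3′. The windows lay at chr7:106236444-106236643 near Gvin1, chr15:75084529-75084728 near Ly6c2, chr2:116417828-116418027 near Meis2, chr11:94870053-94870252 near Col1a1 and chr13:6191957-6192156 near Klf6.
Gvin1: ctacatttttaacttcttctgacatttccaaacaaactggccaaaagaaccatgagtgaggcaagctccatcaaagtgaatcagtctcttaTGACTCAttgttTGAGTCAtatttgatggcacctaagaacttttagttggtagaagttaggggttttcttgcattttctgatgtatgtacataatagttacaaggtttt
Ly6c2: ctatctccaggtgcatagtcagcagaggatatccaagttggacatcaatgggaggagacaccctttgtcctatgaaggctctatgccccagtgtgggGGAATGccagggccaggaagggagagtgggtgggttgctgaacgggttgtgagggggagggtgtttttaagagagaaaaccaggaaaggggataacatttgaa
Meis2: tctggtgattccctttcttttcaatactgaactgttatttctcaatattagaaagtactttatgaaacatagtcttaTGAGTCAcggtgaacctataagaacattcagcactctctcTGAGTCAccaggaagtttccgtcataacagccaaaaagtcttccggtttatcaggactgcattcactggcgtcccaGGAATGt
Col1a1: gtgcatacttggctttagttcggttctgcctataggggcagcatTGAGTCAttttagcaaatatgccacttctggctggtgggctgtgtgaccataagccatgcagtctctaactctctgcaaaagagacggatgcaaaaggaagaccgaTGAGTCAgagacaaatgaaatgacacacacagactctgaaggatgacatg
Klf6: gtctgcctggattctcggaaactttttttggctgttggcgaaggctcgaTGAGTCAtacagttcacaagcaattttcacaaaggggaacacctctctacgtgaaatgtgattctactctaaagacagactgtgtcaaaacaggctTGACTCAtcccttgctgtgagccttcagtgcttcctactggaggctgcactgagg
The 2 AP-1 matches were 5 bases apart in the Gvin1 window, 33 in the Meis2 window, 89 in the Klf6 window and 99 in the Col1a1 window. The Ly6c2 region held no AP-1 letters over its whole length.

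Most members lay far from protein-coding start sites. Their distance to the nearest protein-coding start site ran from 1056 bp to 1.43 Mb, with a median of 64.6 kb and quartiles of 26.6 and 155 kb. Shared regions inside gene bodies but away from promoters, called intragenic regions here, had a median distance of 35.2 kb to a start site. Over 10 kb from a start site lay 4185 members, over 100 kb lay 1679 members and over 500 kb lay 135 members. Most members, 2855 of them (63.0%), lay upstream of that start site and 1680 lay on its downstream side. Gene bodies, which the rule bars, lie downstream of start sites, so this split was partly fixed by the choice. Members were 1500 to 19500 bp long with a median of 5500 bp, and together they covered 30.7 Mb.

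**Figure D1:**
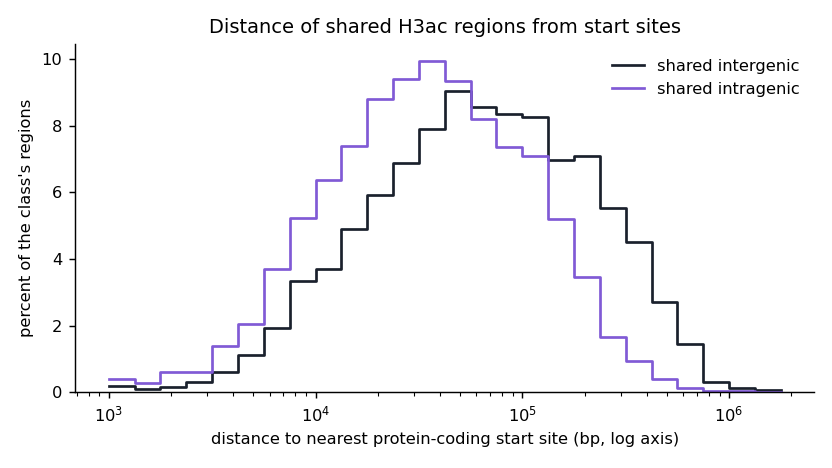
Distance from each shared region to the nearest protein-coding start site (x axis, bp, log scale) against the percent of the regions of that class (y axis), for 4535 intergenic members and 4558 intragenic regions. The intergenic line is shifted to the right, with medians of 64.6 kb and 35.2 kb.

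The members came in groups along the chromosomes. Of all members, 2368 (52.2%) had another member within 50 kb, and 57 chains of at least 5 members with gaps of no more than 50 kb held 333 of them. The longest chains had 8 members each. The first ran over 242 kb between Col5a2, which encodes a fibrillar collagen chain, and Wdr75 (chr1:45527001-45769000). The second covered 236 kb between Opa1 and Hes1, a Notch target gene (chr16:29713501-29949500), and the third 230.5 kb between Snx13 and Ahr, the aryl hydrocarbon receptor (chr12:35190501-35421000). Chromosome 13 was the densest, with 2.76 members per Mb against 1.82 over the autosomes. The X chromosome held 44 members, or 0.257 per Mb, and was poor in all regions as well, with 2.39 per Mb against 9.75 on the autosomes.

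Many members overlapped genes that make no protein. A gene of another type was overlapped by 1313 members (29.0%), which included 875 over lincRNA genes, 142 over processed transcripts, 113 over antisense genes and 100 over processed pseudogenes. The start site of such a gene lay within 1 kb of 823 members (18.1%). The 823 members had a median GC content of 45.5% against 44.3% in the others, a median CpG ratio (CpG observed over expected from base content) of 0.234 against 0.194, and a median level of 2.67 RPM per kb against 2.63. No test was run between them.

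MicroRNA genes were among those noncoding genes. MicroRNAs are short RNAs that pair with messenger RNAs through a seed at bases 2 to 8 and lower their output. An annotated microRNA gene was overlapped by 32 members. Whole inside 18 members lay 28 microRNA genes of RefSeq (GRCm38), and the 18 were matched by position to the mature sequences there. The members that hold the best known microRNAs of stromal and proliferating cells are described here and were chosen after their values were seen. The sequences are given with the seed in capitals because some seeds are shared, within 1 member or between members.
miR-17-5p: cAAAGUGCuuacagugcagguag
miR-20a-5p: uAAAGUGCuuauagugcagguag
miR-18a-5p: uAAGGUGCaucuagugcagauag
miR-19a-3p: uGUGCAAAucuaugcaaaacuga
miR-19b-3p: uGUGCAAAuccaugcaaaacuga
miR-92a-3p: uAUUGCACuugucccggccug
miR-193a-3p: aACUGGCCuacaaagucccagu
miR-193b-3p: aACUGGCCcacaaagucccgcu
miR-30a-5p: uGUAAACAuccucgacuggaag
let-7i-5p: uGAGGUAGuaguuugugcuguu
miR-125b-5p: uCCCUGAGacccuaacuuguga
The first 6 come from the Mir17 cluster, known for its part in cell proliferation, which lay whole inside 1 member (chr14:115039501-115045000). In it, miR-17-5p and miR-20a-5p share the seed AAAGUGC, and miR-19a-3p and miR-19b-3p share GUGCAAA. miR-193a-3p and miR-193b-3p share the seed ACUGGCC but lay in members on different chromosomes (chr11:79710001-79726000 and chr16:13445501-13454000).

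The Mir17 cluster member held 15.5 and 13.9 RPM in Young, 21.7 and 16.3 RPM in Old, and 17.8 and 19.2 RPM in OldAcetate. Both Old libraries were above both Young libraries there. The Mir30a member (chr1:23254501-23274000) held 59.2 and 52.3 RPM in Young, 48.5 and 43.7 RPM in Old, and 64.2 and 59.2 RPM in OldAcetate, so that the Old libraries were the lowest pair. For Mirlet7i (chr10:122981001-122989500) the values were 31.3 and 27.4 RPM in Young, 20.8 and 30.6 RPM in Old, and 34.6 and 31.3 RPM in OldAcetate, with Old overlapping Young. Mir125b-2 (chr16:77635501-77648500) had 44.7 and 35.1 RPM in Young, 32.8 and 30.6 RPM in Old, and 33.3 and 30.4 RPM in OldAcetate, with no gap between the last 2 groups. The members with the shared ACUGGCC seed were both highest in Young replicate 1. Mir193a had 58.9 and 51.9 RPM in Young, 49.0 and 41.8 RPM in Old, and 48.4 and 50.1 RPM in OldAcetate. Mir193b had 44.4 and 34.3 RPM in Young, 24.0 and 33.0 RPM in Old, and 40.0 and 34.6 RPM in OldAcetate. None of the 6 members passed the adjusted threshold in any comparison described below.

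The base composition of the members was that of distal chromatin. Their median GC content was 44.5%, near the 44.9% of intragenic regions and below the 48.1% of shared promoter regions. The median CpG ratio was 0.200 in members, 0.209 in intragenic regions and 0.419 in promoter regions, where CpG islands are common. Repeat sequence, taken as the soft-masked part of the genome, made up a median of 20.5% of a member, and 30 members were masked over 50% or more of their length. These differences between classes are descriptions, since neighbouring regions are not independent.

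AP-1 letters were gathered at the centres of the members. Within 500 bp of the centre there were 0.341 AP-1 matches per kb, and beyond 8 kb from it 0.179 per kb, a ratio of 1.90. The ratio was 1.83 in intragenic regions and 0.817 in promoter regions. In the central 500 bp, AP-1 letters were found in 696 members (15.3%), in 14.7% of intragenic regions, in 6.81% of promoter regions and in 11.4% of all regions of the table. Intergenic regions with another code, which were not called in all 3 groups, held them in 15.6% of cases, so the share was not particular to regions called in every group. In 4 equal groups of members by level per kb, from low to high, it was 13.7%, 14.1%, 15.9% and 17.7%.

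TEAD and RUNX letters were less centred. The TEAD ratio of centre to flank was 1.18 in members against 0.918 in promoter regions, and the central 500 bp held TEAD letters in 28.9% of members, 28.1% of intragenic regions, 21.0% of promoter regions and 25.4% of all regions. For RUNX the ratio was 1.06 against 0.728 in promoter regions, with shares of 34.7%, 34.1%, 25.8% and 30.9% in the same order. Letters typical of promoters were rarer in member centres than in promoter centres. The letters CCGGAAGT, bound by ETS factors, were in 0.728% of member centres and 2.61% of promoter centres, and the CTCF-like letters AGNNGGCGC in 1.76% and 8.19%. Those of C/EBP factors, TTGCNNAA, known from fat cell differentiation, were in 22.1% of members, 17.0% of promoter regions and 19.2% of all regions. The centre-to-flank ratios of members were 1.85 for CREB, 1.66 for ETS and 1.55 for the CTCF-like letters, near that of AP-1 but for letters that were far rarer. Cores of E-box (CATCTG) and homeobox (TAATTA) type had ratios of 0.995 and 0.846 in members, and the CREB letters TGACGTCA were found in 0.728% of member centres. The GC content of members was 45.3% within 500 bp of the centre and 43.4% in the flanks, while in promoter regions it was 51.9% and 44.6%. A match of letters is no evidence that the factor was bound.

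**Figure D2:**
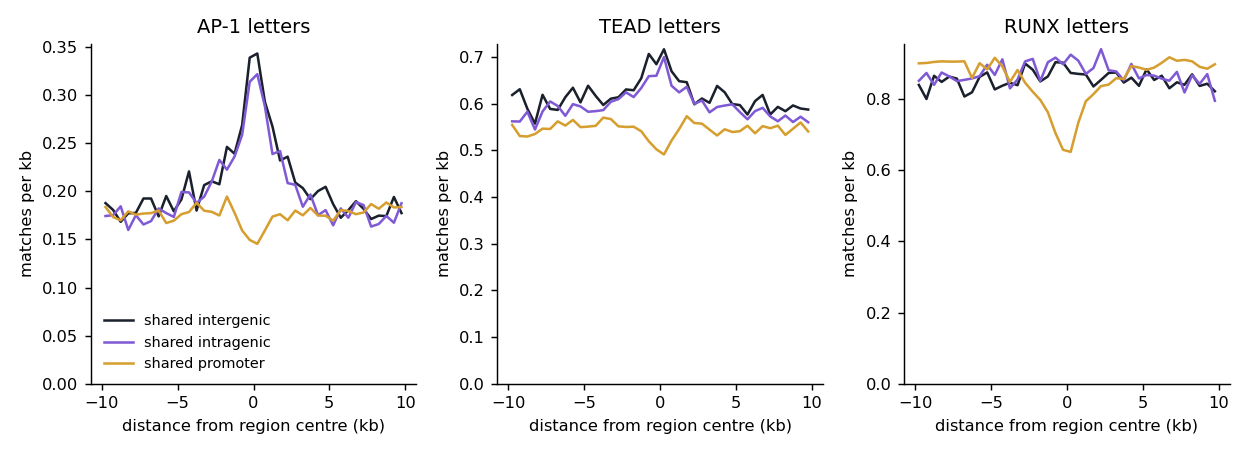
AP-1, TEAD and RUNX letters per kb (y axes, from 0) in bins of 500 bp by distance from the region centre (x axes, kb), for the 3 classes of shared region. The AP-1 lines of intergenic and intragenic regions peak at the centre (0.341 per kb within 500 bp in the members) and the promoter line dips there.

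The H3ac level of the members was compared between groups with the values as deposited. The median member held 17.8 and 15.5 RPM in the Young libraries, 14.3 and 12.3 RPM in Old, and 15.1 and 15.0 RPM in OldAcetate. The 2 Old libraries were the lowest, and OldAcetate lay between Old and Young. On the log2(RPM + 0.5) scale the Young median was 4.10 ± 0.13, the Old median 3.79 ± 0.15 and the OldAcetate median 3.96 ± 0.01 (SD over 2 libraries). The log2 difference was -0.31 for Old minus Young, 0.17 for OldAcetate minus Old and -0.14 for OldAcetate minus Young, beside a pooled SD of 0.115. The same 3 differences were -0.33, 0.21 and -0.11 over all regions, so the members moved with the whole table. With 2 libraries against 2 an exact permutation test cannot go below 0.333, and none was run on the members. The share of a library's reads inside all regions moved with this shift, at 64.8% and 57.8% (Young), 49.9% and 45.9% (Old) and 57.3% and 56.3% (OldAcetate), and its part in the result was not tested. Fewer marked cells, less H3ac per cell and a technical difference in the share of reads inside regions cannot be told apart in these bulk libraries.

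**Figure D3:**
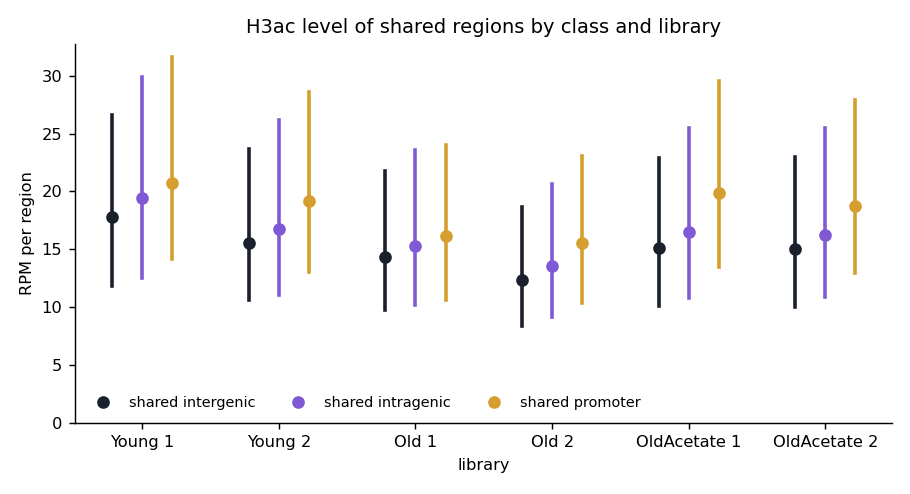
RPM per region (y axis, from 0) in each of the 6 libraries (x axis) for the 3 classes of shared region, with points at the medians and bars from the first to the third quartile. The medians of the intergenic members run from 12.3 RPM in Old replicate 2 to 17.8 RPM in Young replicate 1, and the promoter medians lie above them in every library.

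The promoter regions differed from the members most in the acetate comparison. OldAcetate exceeded Old by 0.28 in the promoter median against 0.17 in the members and 0.18 in intragenic regions. Counted region by region, both Old libraries were below both Young libraries in 2242 members (49.4%), where the share over all regions was 60.2%, and above both in 97 members (2.14%), against 1.29% of all regions. Both OldAcetate libraries were above both Old libraries in 1549 members (34.2%), against 47.1% of all regions and 55.9% of promoter regions. They were below both in 199 members (4.39%), against 3.46% of all regions. In intragenic regions these shares were, in the same order, 53.9%, 1.67%, 37.2% and 4.08%. The same pair of Old libraries enters both comparisons.

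The members' part of the signal inside regions was measured as a share, which a shift common to all regions does not move. In both Young libraries members took 14.7% of in-region reads. The Old libraries gave 15.6% and 14.7%, and the OldAcetate libraries 14.3% and 14.6%, so that 1 Old library matched Young and the other was higher. Old minus Young was 0.440 percentage points and OldAcetate minus Old -0.675, beside a pooled SD of 0.378. The differences shrank to 0.000938 and -0.236 when Old replicate 1 was left out, and grew to 0.879 and -1.11 when the other Old library was left out. Of all reads of a library, members held 9.55% and 8.50% (Young), 7.78% and 6.76% (Old) and 8.21% and 8.23% (OldAcetate).

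Single members were tested relative to the shift of all regions. limma was fitted to all 24431 regions and 6 libraries after each library was scaled to the median change, and p-values were adjusted over the whole table by the Benjamini-Hochberg method. In Old vs Young, 2 members had an adjusted p under 0.05 and both were higher in Old, and these were the only calls in the table (0.00819% of regions). At an unadjusted p under 0.05 there were 260 members (5.73%) beside 5.54% of all regions. In OldAcetate vs Old no member was called (0% of all regions), 252 members (5.56%) had an unadjusted p under 0.05 beside 6.24% of all regions, and edgeR on the recovered reads also called 0. In OldAcetate vs Young the count was again 0 (0% of all regions), with 199 members (4.39%) at an unadjusted p under 0.05 beside 5.08% of all regions, and 0 by edgeR. For these 3 comparisons in turn, the scaled log2 change had a member median of 0.04, -0.06 and -0.02, beside -0.00, 0.00 and 0.00 over all regions. The scaling itself sets the values over all regions near 0. Intragenic regions had medians of 0.03, -0.06 and -0.03, close to those of the members. With the values as given, the first and the second of the member medians had the opposite sign (-0.31 and 0.17).

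The scaling decided the number of calls. With the values as given, limma called 245 members lower in Old than in Young (5.40%), where 9.5% of all regions were called in that direction, and 4 members higher (0.0882%), beside 0.0287% of all regions. By edgeR on the recovered reads without scaling factors, 273 members were called in Old vs Young, beside 10.3% of all regions. The 4 members called in OldAcetate vs Old with the values as given were all higher with acetate (0.0882%), beside 0.311% of all regions.

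The member called with the lowest p lay on chromosome 15 (chr15:75084501-75088000), 23.7 kb on the downstream side of Ly6c2, a surface antigen gene of the Ly6 family. It held 42.4 and 58.8 RPM in Young, 68.9 and 73.2 RPM in Old, and 60.1 and 78.0 RPM in OldAcetate. Both Old libraries were above both Young libraries, and Young replicate 1 was the lowest of the 6. The scaled log2 fold change of Old vs Young was 0.85 (SE 0.14, limma adjusted p = 0.00360). Its level of 18.2 RPM per kb was the second highest of all members, whose median was 2.64, and 59.4% of its bases were soft-masked.

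The other called member lay on chromosome 7 (chr7:106235001-106245500), 19.7 kb upstream of Gvin1, which encodes a very large interferon-inducible GTPase. It held 23.0 and 30.2 RPM in Young, 44.4 and 35.0 RPM in Old, and 37.3 and 40.9 RPM in OldAcetate. All 4 libraries of older mice were above both Young libraries. The scaled log2 fold change of Old vs Young was 0.92 (SE 0.17, limma adjusted p = 0.0157). Soft-masked bases made up 46.3% of it, and 3 AP-1, 11 TEAD and 9 RUNX matches lay inside.

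Both calls depended on single libraries. Leaving out a library of a compared group leaves 1 in that group, which is then assumed to vary like the other groups. Without Young replicate 1, without Old replicate 1 or without Old replicate 2, neither member was called, with limma adjusted p from 0.111 to 0.998. The scaled log2 fold change without Young replicate 1 was 0.54 for the Ly6c2 member and 0.65 for the Gvin1 member, and without Young replicate 2 it was 1.17 and 1.19. Without Old replicate 1 or 2 it was 0.96 and 0.75 for the Ly6c2 member and 0.81 and 1.03 for the Gvin1 member, near the values from all libraries. Without OldAcetate replicate 1 or 2, the Ly6c2 member was still called and the Gvin1 member was not, with a log2 fold change of 0.92 both times and limma adjusted p of 0.0786 and 0.0739. Across these omissions the number of members called ran from 0 to 5, the latter without Young replicate 2.

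**Figure D4:**
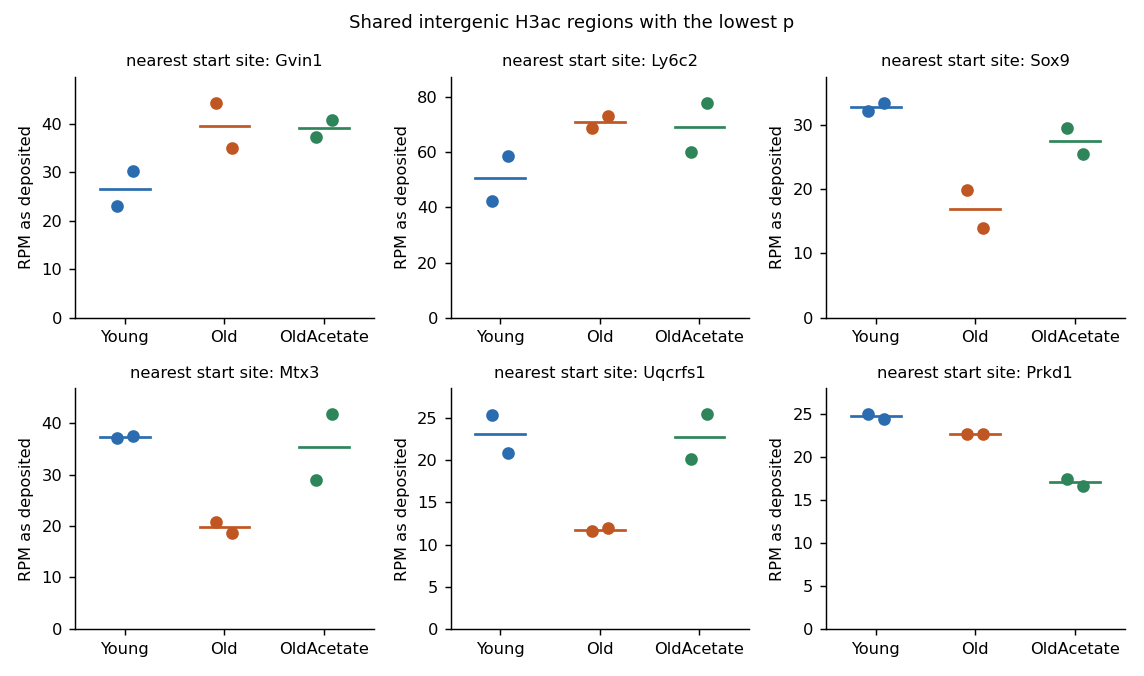
RPM as deposited (y axes, from 0) of 6 intergenic members by group (x axes), with a point for each library and a line at the mean of 2. In the Gvin1 and Ly6c2 members both Old libraries lie above both Young libraries, and in the Sox9, Mtx3 and Uqcrfs1 members both Old libraries lie below those of the other groups.

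Further members were picked by p among those with groups apart on the scaled values and a level at or above the median of all regions. Among those lower in Old than in Young, the ones of lowest p did not pass the threshold after scaling. The first was a member 357 kb on the downstream side of Sox9, the master transcription factor of cartilage, and lay over the noncoding gene 2610035D17Rik (chr11:113139501-113149000). It held 32.2 and 33.5 RPM in Young, 19.9 and 13.9 RPM in Old, and 29.6 and 25.4 RPM in OldAcetate. Both Old libraries were below the 4 others. Its scaled log2 fold change was -0.61 (limma adjusted p = 0.737), and -0.96 with the values as given (limma adjusted p = 0.00697).

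The next lay 116 kb from Mtx3, a gene of mitochondrial import (chr13:92961001-92975000), and held 37.2 and 37.6 RPM in Young, 20.8 and 18.7 RPM in Old, and 28.9 and 41.7 RPM in OldAcetate. OldAcetate overlapped Young and not Old. Its log2 fold change was -0.56 in Old vs Young (limma adjusted p = 0.789) and 0.56 in OldAcetate vs Old (limma adjusted p = 0.658), 2 comparisons that share the Old libraries. A member 18.9 kb from Uqcrfs1, which encodes a subunit of respiratory complex III, had, within these limits, the lowest p among the higher values of OldAcetate vs Old (chr13:30521501-30526500). Its values were 25.3 and 20.8 RPM in Young, 11.6 and 11.9 RPM in Old, and 20.2 and 25.4 RPM in OldAcetate, and its limma adjusted p was 0.658. With the values as given, the Mtx3 and Uqcrfs1 members passed the threshold in OldAcetate vs Old, with limma adjusted p of 0.0455 and 0.0465.

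Other members had lower scaled values in OldAcetate, either than in Old or than in Young. A member 114 kb upstream of Prkd1, a protein kinase gene (chr12:50763001-50769500), held 25.0 and 24.5 RPM in Young, 22.6 and 22.7 RPM in Old, and 17.5 and 16.7 RPM in OldAcetate. Its replicates lay close together and its groups did not overlap, but the scaled change of OldAcetate vs Old of -0.64 had a limma adjusted p of 0.654. A member 118 kb upstream of St3gal1, a sialyltransferase gene (chr15:67295001-67307000), held 33.2 and 29.4 RPM in Young, 32.8 and 29.4 RPM in Old, and 20.2 and 29.6 RPM in OldAcetate. Its OldAcetate libraries disagreed, and the change was -0.58 (limma adjusted p = 0.658). In OldAcetate vs Young the lowest p among falls, within the same limits, belonged to members near Xkr5 (chr8:18898001-18903500) and Gm26657 (chr4:56213001-56226000). They had scaled changes of -0.86 and -0.53, with limma adjusted p of 0.851 and 0.964.

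Levels per kb were narrow for most members, with quartiles of 2.33 and 3.02 RPM per kb, and a few members stood far above them. The highest was on chromosome 17 (chr17:39842001-39849500), over the annotated genes AY036118, CT010467.1, Gm26917 and Gm42418, at 58.4 RPM per kb. Gm42418 is known to hold sequence shared with ribosomal RNA, which has many copies in the genome, and how reads matching several copies were counted is not given in the sources used here. It held 206 and 523 RPM in Young, 588 and 453 RPM in Old, and 390.1 and 467 RPM in OldAcetate. The 2 Young libraries differed more from each other than any group means did. After the Ly6c2 member came one near Gm21060 (chr19:61265501-61268000) with 14.1 RPM per kb, one 51.7 kb from Polr3k (chr2:181916001-181919500) with 12.4 RPM per kb, and one near Hpcal1 (chr12:17880501-17883500) with 6.72 RPM per kb. The Polr3k member was 62.4% soft-masked and held 34.2 and 43.7 RPM in Young, 49.5 and 44.9 RPM in Old, and 37.3 and 50.9 RPM in OldAcetate.

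The most remote members lay in 2 gene deserts. Of the 5 farthest, 3 lay upstream of Zeb2, a transcription factor gene of mesenchymal differentiation, at 1434, 1373 and 1323 kb, and 2 upstream of Flrt2, an adhesion receptor gene, at 1407 and 1181 kb. The Zeb2 member at 1323 kb (chr2:46440501-46447000) had 4.39 RPM per kb and held 33.6 and 27.4 RPM in Young, 29.1 and 20.7 RPM in Old, and 33.3 and 27.1 RPM in OldAcetate. These groups overlapped. The farthest member (chr2:46551501-46555500) held 9.87 and 8.17 RPM in Young, 11.1 and 5.57 RPM in Old, and 8.07 and 10.4 RPM in OldAcetate, with GC at 36.7%.

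Relative to the shift of all regions, remote members had a higher value in Old vs Young than near ones. The median scaled change of Old vs Young was 0.14 in the 135 members over 500 kb from a start site and 0.04 in the 4400 others. Per library, the far members deviated from their own mean by a median of -0.09 and 0.01 (Young), 0.14 and 0.05 (Old) and 0.00 and -0.07 (OldAcetate), so the 2 Old libraries were the highest. When a compared library was left out, their change ran from 0.07 without Young replicate 1 to 0.19 without Old replicate 2, and that of the others from 0.01 to 0.09. GC content moved with distance, with a median of 39.4% in far members against 44.6% in the others. In 4 equal groups by GC content, from low to high, the median change was 0.07, 0.06, 0.03 and 0.01. Within the group of lowest GC it was 0.14 in 100 far members and 0.07 in 1034 nearer ones, and the part of GC in the result was not tested further. The pooled SD of library medians was 0.039 over all members, and none was taken for the 135 far members alone. In OldAcetate vs Old the far and near medians were -0.09 and -0.06.

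Some genes were the nearest start site of many members. The 4535 members had 2551 nearest genes, of which 1613 had 1 member and 127 had 5 or more. Inhba, which encodes a subunit of the activin ligands, and Klf6, a zinc finger transcription factor gene, had 14 each. Tbl1xr1, a subunit of nuclear corepressor complexes, and Zfp608 had 13, Sox9 and Zeb2 had 12, and Cited2, a partner of the acetyltransferases CBP and p300, Gm9747 and the growth regulator Myc had 11. Efnb2, an ephrin ligand, Trib2, a pseudokinase, Ubash3b, a phosphatase, and Zfp703 had 10. The members of Inhba lay 79.9 to 741 kb from its start site, 7 of them upstream, and 13 held AP-1 letters. Those of Klf6 lay 12.5 to 512 kb away with AP-1 letters in 12, and those of Myc 172 to 708 kb away with AP-1 letters in 9, and 2 of its 11 members lay upstream. Over all members, AP-1 letters were found somewhere in 77.4%.

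Summed over its members, the level of each of the 13 genes was lower in Old on average than in Young. The 14 members of Inhba summed to 319 and 311 RPM in Young, 297 and 235 RPM in Old, and 280 and 285 RPM in OldAcetate. The 14 of Klf6 summed to 329 and 328 RPM in Young, 293 and 258 RPM in Old, and 310.5 and 321 RPM in OldAcetate. For the 12 members of Sox9 the sums were 215 and 178 RPM in Young, 153 and 122 RPM in Old, and 167 and 164 RPM in OldAcetate, so that both OldAcetate libraries lay between the other groups. The 11 members of Myc summed to 339 and 293 RPM in Young, 262 and 222 RPM in Old, and 280 and 294 RPM in OldAcetate. The 12 members of Zeb2 summed to 245 and 239 RPM in Young, 237 and 197 RPM in Old, and 244 and 247 RPM in OldAcetate, and after scaling no member of these 13 genes was called in any comparison. With the values as given, 7 of their 151 members were called lower in Old than in Young. The share called lower was 5.40% over all members and 9.5% over all regions. Of the 151 members of these genes, 0 were called higher, and 0 were called in the other comparisons. Relative to the shift of all regions, their median changes in Old vs Young ran from -0.21 for Zfp608 to 0.16 for Zeb2.

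**Figure D5:**
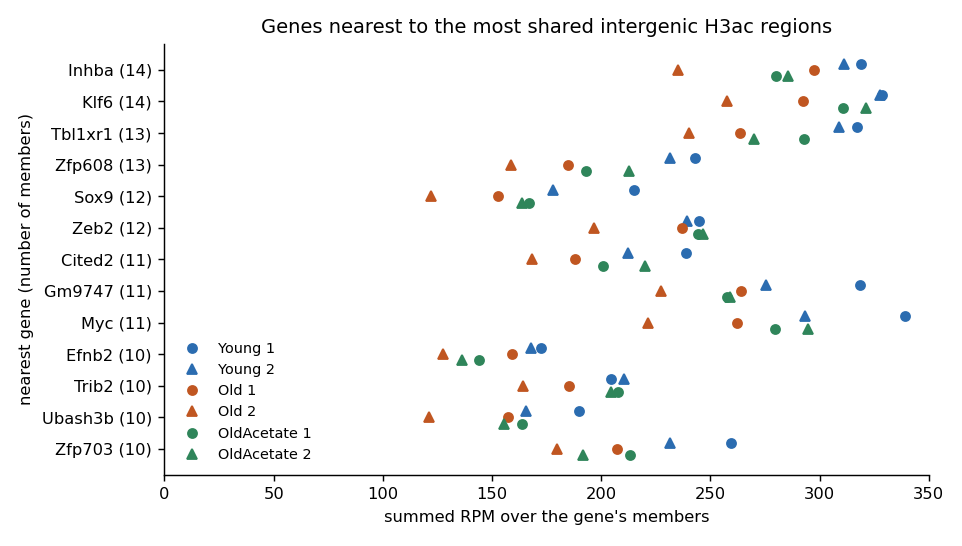
Summed RPM as deposited (x axis, from 0) over the intergenic members nearest to each of 13 genes (y axis, number of members in brackets), with a mark for each library. For Klf6 the sums run from 258 RPM in Old replicate 2 to 329 RPM in Young replicate 1, and Old replicate 2 is the lowest library in every row.

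Lists of genes of stromal biology were looked up among the nearest genes. Of 24 osteogenic genes, 11 were nearest to 19 members, of 14 adipogenic genes 7 to 9 members, and of 20 cartilage and limb genes 11 to 34 members. Among 15 genes of AP-1 and the immediate early response, 9 were nearest to 26 members, among 17 annotated genes of the TGF-beta and YAP pathways 9 to 24 members, and among 16 stromal niche genes 7 to 18 members. After scaling, no member of these lists was called in any comparison, in either direction. With the values as given, 1, 2, 3, 2, 3 and 1 members of the lists, in the order named, were called lower in Old than in Young. By the same values, 5.40% of all members and 9.5% of all regions were called lower. No member of the lists was called higher in Old, and none was called in the other comparisons. The members called as given included those of Lpl and Ebf1 (limma adjusted p of 0.0357 and 0.0396). After scaling, the median change in Old vs Young was -0.10 for Lpl and -0.16 for Ebf1. For Klf5, Lep, Ebf2 and Pparg of the same list it was 0.45, 0.27, 0.19 and 0.15. In Old vs Young, the median scaled change was 0.05 in the osteogenic list, 0.15 in the adipogenic, 0.02 in the cartilage and limb, -0.02 in the AP-1, -0.07 in the TGF-beta and YAP and 0.10 in the niche list, beside 0.04 over all members. In OldAcetate vs Old the medians ran from -0.08 to -0.01, beside -0.06 over all members, and in OldAcetate vs Young from -0.16 to 0.08, beside -0.02.

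Among osteogenic genes, Col1a1, the main collagen of bone, had a member 51.7 kb upstream (chr11:94869001-94884500) that held 62.2 and 46.6 RPM in Young, 42.5 and 41.8 RPM in Old, and 51.1 and 52.6 RPM in OldAcetate. Old was the lowest group there as deposited, and its scaled change was 0.00. Msx2, a homeobox gene of skull and limb bone, had 3 members, the highest at 244 kb with 25.3 and 24.9 RPM in Young, 22.6 and 19.5 RPM in Old, and 29.9 and 25.9 RPM in OldAcetate (chr13:53717001-53724500). Dlx6 and Dlx5, paired homeobox genes that promote bone formation, had members 57.8 and 24.9 kb upstream of their start sites at 3.47 and 2.77 RPM per kb. Twist2, which restrains osteoblasts, had one 54.0 kb away at 3.07 RPM per kb, and Bmp2, a bone-inducing ligand, one 51.7 kb away at 2.80 RPM per kb.

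Among fat cell genes, Pparg, the master regulator of that lineage, had a member 37.5 kb upstream (chr6:115311501-115323500). It held 39.5 and 27.0 RPM in Young, 26.8 and 29.8 RPM in Old, and 35.3 and 29.2 RPM in OldAcetate, and 8 AP-1 matches lay inside. The groups overlapped. Lpl, which encodes a lipase of fatty acid uptake, had a member 71.5 kb away (chr8:68952001-68955500) with 15.5 and 16.7 RPM in Young, 12.9 and 5.57 RPM in Old, and 14.4 and 12.1 RPM in OldAcetate. Members near Ebf2, Lep, Ebf1 and Klf5 had 4.11, 3.04, 2.77 and 2.72 RPM per kb.

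In the cartilage and limb list, Sox9 had the member of highest level per kb, 159 kb upstream (chr11:112619501-112623000) at 4.47 RPM per kb. It held 21.1 and 15.9 RPM in Young, 14.8 and 13.1 RPM in Old, and 17.8 and 11.3 RPM in OldAcetate. Meis2, Meis1, Sox6, Shox2 and Tbx4, transcription factor genes of limb and cartilage patterning, had their highest members at 2.98 to 3.11 RPM per kb. That of Tbx4 (chr11:85940501-85943500) held 13.5 and 11.0 RPM in Young, 7.86 and 5.97 RPM in Old, and 7.73 and 7.51 RPM in OldAcetate, with all 4 libraries of older mice below both Young libraries.

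Jun, which encodes an AP-1 subunit, had 3 members, and the highest lay over Junos, 39.3 kb upstream (chr4:95091501-95109500). It held 82.9 and 87.8 RPM in Young, 69.8 and 61.2 RPM in Old, and 80.3 and 73.4 RPM in OldAcetate, and both Old libraries were the lowest. AP-1 letters matched 6 times inside it. The highest Myc member lay over D030024E09Rik (chr15:61606501-61612500) at 3.56 RPM per kb, and Bach1, Maf and Egr1 had their highest members at 2.70 to 3.31 RPM per kb.

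Of the YAP targets, Ankrd1 had a member 7402 bp upstream (chr19:36127501-36135000) that held 25.7 and 27.0 RPM in Young, 28.7 and 25.5 RPM in Old, and 25.2 and 20.9 RPM in OldAcetate. Ccn2, a matricellular growth factor, had 4 members, the highest at 145 kb (chr10:24444001-24450500) with 20.1 and 18.4 RPM in Young, 18.0 and 15.1 RPM in Old, and 22.8 and 23.8 RPM in OldAcetate. Tgfbr2, a TGF-beta receptor gene, had 5 members, all upstream. They summed to 107 and 116 RPM in Young, 94.3 and 74.0 RPM in Old, and 97.8 and 99.3 RPM in OldAcetate. Ccn1, Smad7 and Tead1 had their highest members at 3.08, 2.89 and 2.74 RPM per kb.

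Among niche genes, Cxcl12, the chemokine that holds blood stem cells in the marrow, had 3 members on its downstream side. The highest lay 149 kb away (chr6:117318001-117334500) and held 57.6 and 61.3 RPM in Young, 58.7 and 41.8 RPM in Old, and 67.2 and 53.0 RPM in OldAcetate. All 3 groups overlapped. Fn1, which encodes fibronectin, had 4 members, Nt5e had 3, and Thy1, Il6 and Kitl had 2 each, at 2.47 to 2.81 RPM per kb in the highest one.

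Values on both sides of the rule's limits were as follows. The 15 members of 19500 bp had a median of 51.2 RPM and the 19 regions of 20000 bp that were otherwise alike 45.4 RPM (2.63 and 2.27 RPM per kb). The 14 members 1 to 2 kb from a start site had a median of 9.40 RPM, against 15.3 RPM in 6 regions at 0.5 to 1 kb (2.45 and 2.51 RPM per kb). At the start site limit, the last member taken lay 1056 bp from Trcg1 (chr9:57232501-57235500) and the first region left out 988 bp from Casp16-ps (chr17:23541001-23552500).

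The labelled cell type was checked at promoters. All 6 stromal marker genes (Pdgfra, Ly6a, Prrx1, Twist1, Runx2 and Col1a1) had a region over their start site, with a summed level of 406 to 570.5 RPM per library. Of 8 hematopoietic and macrophage markers 3 had one, with 46.0 to 68.4 RPM in all. These were Csf1r (9.94 to 21.4 RPM), Cd68 (27.2 to 33.6 RPM) and Cx3cr1 (5.42 to 13.5 RPM). None lay over Ptprc, Spi1, Adgre1, Itgam or Lyz2. Of 3 erythroid markers 1 had one (5.71 to 12.3 RPM) and of 5 endothelial markers 1 (9.55 to 17.4 RPM). The summed hematopoietic level was 68.4 and 57.2 RPM in Young, 55.0 and 49.7 RPM in Old, and 46.0 and 52.6 RPM in OldAcetate, and its part in the results was not tested.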

How the data were processed

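H3ac CUT&RUN was measured in 6 libraries. The authors deposited 1 table with 1 RPM column per library. The values are named RPKM but were not divided by region length: 100% were whole multiples of 1 read (tolerance 0.01), so whole reads were recovered. The submitters' processing notes name mm10, Bowtie2 and Picard, with no versions. The peak caller, and any use of the yeast DNA added when the reaction was stopped, are not given in the sources used here. Region lengths are multiples of 500 bp, and reads without molecular identifiers give counting error only.

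Regions were annotated with GENCODE M21 and read from GRCm38. Groups were compared by limma (version 3.58.1, R 4.3.3). Its trend and robust options were applied to median-scaled log2(RPM + 0.5) values of all 6 libraries, at a Benjamini-Hochberg adjusted p of 0.05. Fold changes on this scale understate changes of low regions. Other settings tried were edgeR 4.0.16 on recovered reads, quantile or no scaling, a replicate block, each library left out, the 25% of lowest regions dropped, and pseudocounts of 0.1 or 1. The fit was tested on simulated data.

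Named members were those called, the 2 of lowest p per direction (groups apart after scaling, level at or above the median), the 5 highest per kb, the 5 farthest, the members of the genes with the most members, up to 6 genes per neighbour list, and those at the limits of the rule. Members and lists were chosen with earlier results of these data known. Python 3.11.15 and matplotlib 3.10.9 made the figures. Some sequence windows and a named member are not reported here.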

Additional observations from a re-analysis of the deposited data

How the results depend on the processing

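The number of members called in Old vs Young was 2, and was 2 or 3 with pseudocounts of 0.1 and 1, quantile normalization, the lowest 25% of regions removed and edgeR with RLE factors. It was 249 with no scaling (245 lower, beside 9.5% of all regions, and 4 higher) and 273 with edgeR without factors (10.3% of all regions), which was added after seeing the data. With no scaling, 4 members were called when OldAcetate was compared with Old and 0 when it was compared with Young, and edgeR without factors called 0 in both. With no scaling the median change of the members became -0.31 for Old vs Young, 0.17 for OldAcetate vs Old (both of opposite sign to the scaled values) and -0.13 for OldAcetate vs Young, since the scaling removes the shift common to all regions. Leaving out 1 library at a time gave 0 to 5, 0 to 1 and 0 to 2 called members, the highest count each time without Young replicate 2, and median changes from 0.0107 to 0.0913, from -0.113 to -0.0383 and from -0.0291 to 0.00277, in the same order. The difference in the share of in-region reads ran from 0.000938 to 0.879, from -1.11 to -0.236 and from -0.382 to -0.0875 percentage points. Beyond what is given here, the causes were not tested.

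With the replicate number as a replicate block, 2 members were called in Old vs Young and 0 in each of the other comparisons, so it changed no call. Same-numbered deviations correlated at 0.01, -0.03 and -0.04 over all regions. Counting error enters each deviation, so these values cannot show whether same-numbered libraries were paired. The number of members was 4454 with no start site within 5 kb and 3222 outside gene bodies of every gene type. AP-1, TEAD and RUNX letters were in 28.1%, 49.3% and 57.2% of the central 1000 bp.

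The median member held 31 to 54 reads per library, at which counting error was 13.6% to 18.0% of the value, and each group had 2 libraries. The values for far members and groups by GC, and edgeR for the named members, were added after seeing the data.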
